A study of Homo sapiens with 6 samples.

Results

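The genes described here are 33 members of MHC class I and class II antigen presentation, taken by symbol from 6 tables of 60725 rows (58828 symbols once rows sharing a symbol were summed). All 33 were listed, each on a single row. Each library was made from a tumour of MHCC97L, a human liver cancer cell line, grown as a xenograft in a host animal. There were 3 control libraries (Ctrl A, B and C) and 3 libraries of tumours given recombinant human lumican (rhLUM A, B and C). Lumican is a proteoglycan found among collagen fibres, and both groups carry the same line with no other genotype or treatment named. Not given in the sources used here were the control treatment, the dose, route and duration, the host strain, and if each library stands for its own animal. The p-values therefore set the group difference only against the spread of these samples, and that spread may be technical. The comparison asks which transcripts of the antigen presentation pathway differ between tumours with and without supplied lumican.

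MHC class I molecules stand on nearly all nucleated cells and show peptides from inside the cell to CD8 T cells. Each is a heavy chain (HLA-B, HLA-C and others) bound to the light chain beta-2-microglobulin, loaded in the endoplasmic reticulum with peptides that the TAP transporter brings in. Class II molecules normally belong to professional antigen-presenting cells, take up peptides in endosomes and show them to CD4 T cells. Interferon gamma raises both classes, through the transactivators NLRC5 for class I and CIITA for class II, and NF-kB acts on an upstream enhancer of the class I genes. MICA and MICB are class I-like stress ligands that bind the receptor NKG2D of natural killer cells and carry no peptide. Other HLA genes were not analysed here.

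The reference promoters of the class I chains are shown first. HLA-B and HLA-C are neighbours with like promoters whose transcripts changed by unlike amounts, and a part of the promoters in that was not tested. Each line below gives the last 200 bases before a RefSeq transcription start (build GRCh38.p14, read 5′ to 3′ on the gene's strand), with matches to 6 searched motifs in capitals. Where a gene had more than 1 start, the window with the most motif matches was shown and aligned. The windows lie at chr6:31357180-31357379 (minus strand) for HLA-B, chr6:31272093-31272292 (minus) for HLA-C, chr6:29723234-29723433 (plus) for HLA-F, chr6:29827625-29827824 (plus) for HLA-G and chr15:44711317-44711516 (plus) for B2M. chr6:31403395-31403594 (plus) is that of MICA, the member with the largest rise.
HLA-B: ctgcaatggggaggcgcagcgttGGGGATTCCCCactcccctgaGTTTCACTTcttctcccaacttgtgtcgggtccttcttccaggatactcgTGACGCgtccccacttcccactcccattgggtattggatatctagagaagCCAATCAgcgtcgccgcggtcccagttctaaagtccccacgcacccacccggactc
HLA-C: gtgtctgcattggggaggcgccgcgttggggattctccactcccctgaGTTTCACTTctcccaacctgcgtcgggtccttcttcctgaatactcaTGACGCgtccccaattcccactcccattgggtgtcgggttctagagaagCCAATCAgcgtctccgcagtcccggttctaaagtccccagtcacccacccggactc
HLA-F: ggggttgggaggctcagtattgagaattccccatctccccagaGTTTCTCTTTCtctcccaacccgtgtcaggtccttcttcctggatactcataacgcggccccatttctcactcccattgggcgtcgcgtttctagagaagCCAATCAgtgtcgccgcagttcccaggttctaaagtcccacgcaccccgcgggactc
HLA-G: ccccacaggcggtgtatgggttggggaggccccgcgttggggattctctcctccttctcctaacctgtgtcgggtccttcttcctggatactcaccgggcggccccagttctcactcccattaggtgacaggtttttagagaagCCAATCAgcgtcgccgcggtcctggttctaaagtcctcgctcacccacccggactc
B2M: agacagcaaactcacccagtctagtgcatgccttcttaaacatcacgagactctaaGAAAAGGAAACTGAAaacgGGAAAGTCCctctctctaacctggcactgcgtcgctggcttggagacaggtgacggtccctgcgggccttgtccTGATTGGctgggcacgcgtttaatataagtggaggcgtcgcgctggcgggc
MICA: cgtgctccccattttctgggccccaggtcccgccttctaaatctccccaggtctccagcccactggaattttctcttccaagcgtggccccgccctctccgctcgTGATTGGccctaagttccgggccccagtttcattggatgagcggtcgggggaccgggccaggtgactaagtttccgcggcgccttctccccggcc

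Over the 250 bases before their starts, the HLA-B and HLA-C windows aligned with 89.0% identical columns, HLA-B and HLA-F with 79.8%, and MICA and MICB with 82.7%. The motifs were chosen after the sequences had been read, and were searched on both strands in windows of 300 bases (250 before and 50 after the start). RefSeq windows were found for 28 of the 33 members, 41 windows in all, and 10 members had more than 1. HLA-E, NLRC5, CIITA, HLA-DRA and CTSS had none in the reference. The NF-kB site of the class I enhancer, GGGGATTCCCC, was read from the HLA-B window at -177 to -167, so its match there was fixed in advance. These exact letters stood in 0.0313% of all 35116 promoter windows, and among members in HLA-B alone. At the aligned place HLA-C has GGGGATTCTCC, which differs by C9T, and HLA-F has GAGAATTCCCC, which differs by G2A and G4A (positions counted from 1 at the 5′ end of the HLA-B site). Another NF-kB site, GGANTTTCC, matched in B2M, TAP1 and RFX5 (1.64% of all windows). The class I form of the interferon response element, GTTTCNCTT, matched in HLA-B, HLA-C, HLA-F and RFX5 (1.53%). The general form GAAANNGAA matched in 13 members, including B2M, TAP1, TAP2, TAPBP, ERAP1, ERAP2 and CD74 (8.11%). In HLA-F and RFX5 the matches to both forms overlap, and in B2M, TAP1 and TAPBP 2 matches to the general form overlap each other. The CCAAT motif CCAATCA, of the kind bound by NF-Y, matched in 12 members, among them MICA and MICB (6.95%). It read forward in HLA-B, HLA-C, HLA-F, HLA-G and RFX5 and reversed, as TGATTGG, in the others. The X2 core TGACGC, next to which the RFX complex binds, matched in 5 (9.14%). A member counted as matched if any of its windows held the motif, while the percentages are per window, so counts and percentages differ in unit. A match describes the letters of the reference and not a bound site, and the alleles of the line itself were not analysed here.

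Of the 33 members, 23 had a mean of at least 1 TPM and were tested. TPM is a gene's share of the transcripts of its library, set per transcript length and scaled to the same total in every library. The test was limma on log2(TPM + 1), with p-values adjusted by Benjamini-Hochberg over all 14878 genes tested and a threshold of 0.05. With rhLUM, 11 of the 23 fell, 4 rose and 8 did not pass. Over all genes 22.3% fell and 44.2% rose (66.4% in all), so the members' share of calls, 65.2%, was near that of all genes, while their split was 47.8% lower and 17.4% higher. HLA-B, CD74 and NLRC5 were at least halved on this scale, as were 4.52% of all genes, and no member was at least doubled, against 6.13% of all genes. The median change of the tested members was -0.23 on the log2 scale against 0.16 over all genes tested. After median-of-ratios scaling of the TPM, 16 members were lower and 3 higher, against 4803 and 4842 of all genes (32.3% and 32.5%), in place of 3313 and 6571 as deposited. With a correction for length and GC of the transcripts, 15 members were lower and 4 higher, against 28.7% and 37.2% of the genes. Groups did not overlap for 14 members that were lower and 4 that were higher in rhLUM, against 24.3% and 46.8% of all genes (71.2% in either direction).

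**Figure D1:**
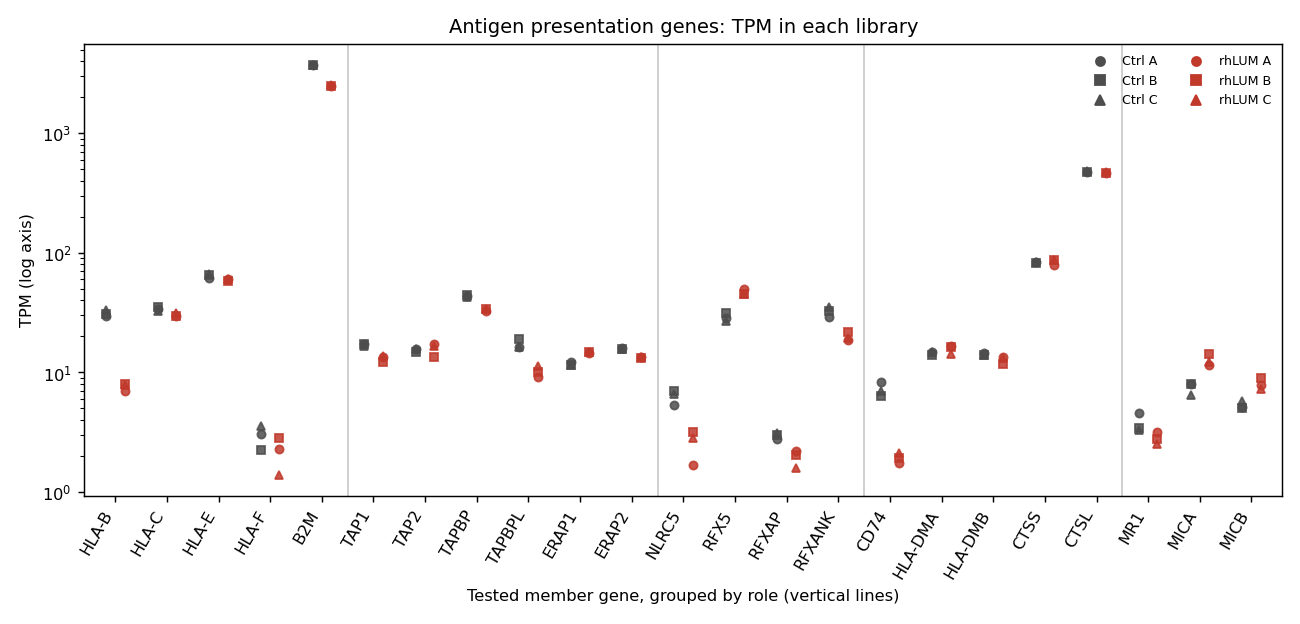
TPM on a log axis for the 23 tested members, grouped by role with vertical lines, with 1 point per library (Ctrl grey, rhLUM red; circle A, square B, triangle C). HLA-B, NLRC5 and CD74 show the widest gaps between groups, RFX5, MICA and MICB stand higher in rhLUM, and CTSS and CTSL overlap.

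Libraries had 23525 to 24060 rows above 0 TPM in Ctrl and 22323 to 22916 in rhLUM, with no overlap. The depth behind the values is unknown, since TPM keeps no depth. Genes of the mitochondrial genome held 20.5 to 20.7% of TPM in Ctrl and 14.3 to 14.5% in rhLUM, and a lower share there raises the TPM of all other genes. Rescaling without these genes moved the median of all genes by -0.10, median-of-ratios scaling by -0.17 and upper quartile scaling by -0.21. A member's small rise or its lack of change depends on that scaling, and falls become larger under it. In a bulk tumour library, fewer cells of a type and less RNA per cell cannot be told apart.

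Among the class I heavy chains, HLA-B, a classical heavy chain that presents peptides to CD8 T cells, fell the most. It stood at 29.69, 30.56 and 33.13 TPM in Ctrl A, B and C and at 7.02, 8.02 and 7.84 TPM in rhLUM A, B and C. The groups lay far apart, with the rhLUM mean at 24.5% of that of Ctrl. The change was -1.90 on the log2(TPM + 1) scale (SE 0.07, limma adjusted p = 9.11e-07), and 1.08% of all genes tested had a lower one. HLA-C, the neighbouring classical heavy chain, was at 33.84, 35.09 and 32.84 TPM in Ctrl and at 29.85, 29.84 and 31.64 in rhLUM. All 3 rhLUM libraries lay below all 3 Ctrl libraries, but by a small step: the change was -0.15 (SE 0.04, limma adjusted p = 0.0197, interval -0.26 to -0.05), and the call was lost on leaving out any of 4 libraries (all but Ctrl C and rhLUM C, adjusted p up to 0.066). The call of HLA-C was also lost with the length and GC correction (-0.10, limma adjusted p = 0.121), while median-of-ratios scaling enlarged the change to -0.34 (adjusted p = 3.87e-04).

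HLA-B and HLA-C thus had like levels in Ctrl and unlike ones in rhLUM. The ratio of HLA-B to HLA-C within a library, which no scaling of the library changes, was 0.877, 0.871 and 1.01 in Ctrl and 0.235, 0.269 and 0.248 in rhLUM. With 3 libraries a group the smallest p of an exact permutation test is 0.1, and ratios were left untested. None of the 1397 stretches of 151 bases (the read length) in the HLA-B reference transcript, and none of the 1404 in that of HLA-C, recurred exactly in a transcript of another gene. GENCODE 29 draws the HLA-B gene on chromosome 6 from 31269491 to 31357188, which runs into HLA-C at 31268749 to 31272130 (GRCh38). How reads of the line's own alleles were assigned was not tested.

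HLA-E, which shows leader peptides of other class I chains to natural killer cells, was the heavy chain with the highest level among the members. It was at 61.62, 65.08 and 66.02 TPM in Ctrl and at 60.75, 58.25 and 60.49 in rhLUM, where the rhLUM libraries lay just below those of Ctrl. Its change of -0.10 did not pass as deposited (SE 0.04, limma adjusted p = 0.0527), and passed at -0.30 after median-of-ratios scaling (adjusted p = 3.52e-04) and on leaving out Ctrl A (adjusted p = 0.0266). HLA-F, a chain that is mostly kept inside the cell, was at 2.26 to 3.55 TPM in Ctrl and at 1.39 to 2.83 in rhLUM. Those groups overlapped, and its change of -0.33 (SE 0.21) did not pass (limma adjusted p = 0.198). HLA-G, a chain known from the placenta, was listed at 0.19 TPM or less in all 6 libraries and was not tested.

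B2M, the light chain shared by all class I molecules (chromosome 15, 44711487 to 44718877, GRCh38, plus strand), was the most abundant member. Its TPM was 3750.45, 3708.30 and 3697.21 in Ctrl and 2492.87, 2491.98 and 2515.05 in rhLUM. The rhLUM libraries stood at 67.2% of Ctrl with little spread, a change of -0.57 (SE 0.01, limma adjusted p = 6.44e-08). HLA-B per 1000 of B2M was 8.37 ± 0.53 in Ctrl and 3.05 ± 0.21 in rhLUM, while HLA-C per 1000 of B2M was 9.12 ± 0.30 and 12.2 ± 0.35 (SD, n = 3 per group). Relative to the light chain, HLA-B was therefore lower and HLA-C and HLA-E (17.3 ± 0.75 and 23.9 ± 0.51) were higher in rhLUM. HLA-B made up 23.5 ± 0.80% of the summed TPM of HLA-B, HLA-C, HLA-E and HLA-F in Ctrl and 7.62 ± 0.55% in rhLUM, and that sum was 132 ± 3.72 and 100.1 ± 1.22 TPM (SD, n = 3).

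**Figure D2:**
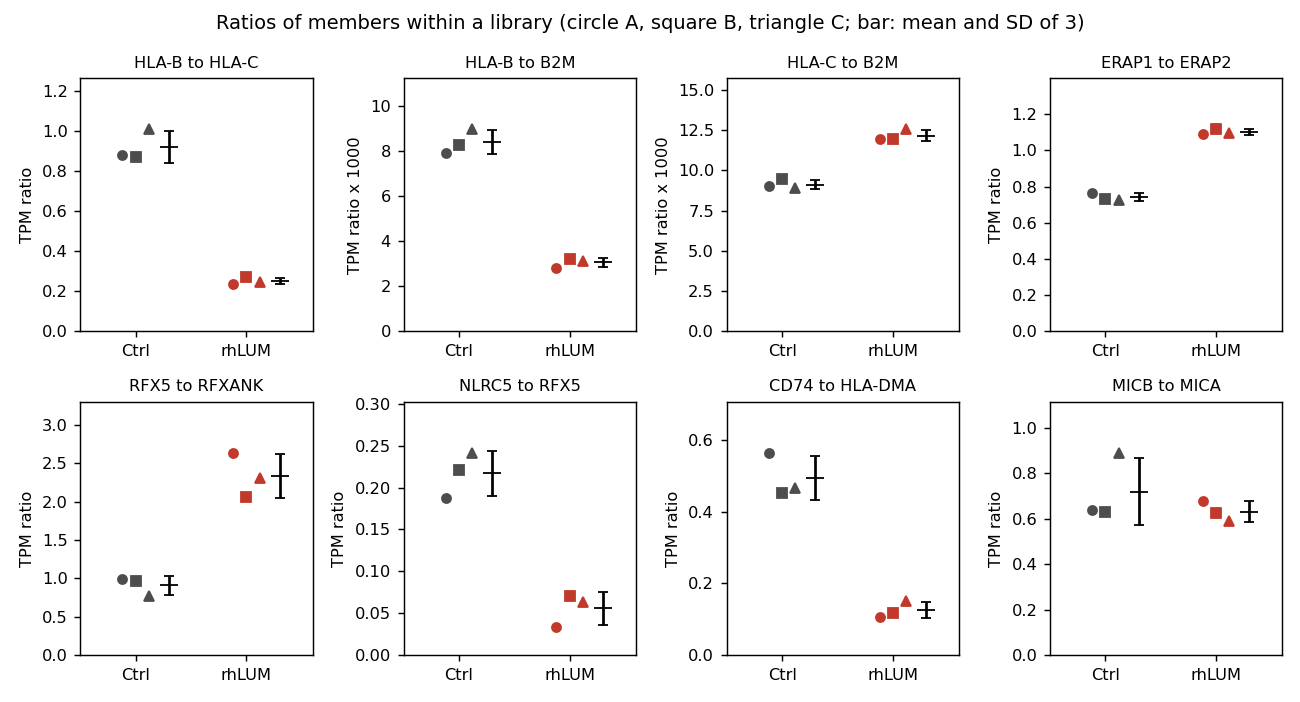
Ratio of the TPM of members within each library, 1 point per library (circle A, square B, triangle C), with the mean and SD of 3 beside each group and axes from 0. The HLA-B to HLA-C ratio lies at 0.871 to 1.01 in Ctrl and 0.235 to 0.269 in rhLUM, and the MICB to MICA ratio is the one shown whose groups overlap.

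The peptide loading genes moved by smaller amounts: 4 of 6 fell, ERAP1 rose and TAP2 did not pass (83.3% called, against 66.4% of all genes, 22.3% lower and 44.2% higher). TAP1 and TAP2 encode the subunits of the peptide transporter. TAP1 was at 17.46, 17.26 and 16.52 TPM in Ctrl and at 13.58, 12.17 and 13.66 in rhLUM, with no overlap and a change of -0.36 (SE 0.06, limma adjusted p = 0.00153). TAP2 was at 15.60, 14.73 and 15.56 TPM in Ctrl and at 17.37, 13.39 and 16.57 in rhLUM, with rhLUM B below and the other rhLUM libraries above all of Ctrl. Its change was 0.03 (SE 0.09, limma adjusted p = 0.766, interval -0.19 to 0.26), or -0.32 with the length and GC correction, where it passed as lower (adjusted p = 0.0198). Of the 151-base stretches of its transcript, 34.6% recur in the annotated transcript AL669918.1. Per library, TAP1 over TAP2 was 1.12 ± 0.055 for Ctrl and 0.838 ± 0.065 for rhLUM (SD, n = 3), with no overlap.

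Tapasin, TAPBP, bridges TAP and the empty class I molecule. It was at 43.27, 44.50 and 42.97 TPM in Ctrl and at 32.55, 33.68 and 33.90 in rhLUM, a change of -0.38 (SE 0.04, limma adjusted p = 8.99e-05). TAPBPL, a related peptide editor, was at 16.43, 19.00 and 16.18 TPM in Ctrl and at 9.23, 10.14 and 11.42 in rhLUM, the largest fall among the loading genes at -0.69 (SE 0.09, limma adjusted p = 4.67e-04). For both, each rhLUM library lay below each Ctrl library.

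ERAP1 and ERAP2, aminopeptidases that trim peptides to length in the endoplasmic reticulum, moved in opposite directions. ERAP1 was at 12.31, 11.57 and 11.50 TPM in Ctrl and at 14.55, 14.92 and 14.84 in rhLUM, a change of 0.30 (SE 0.05, limma adjusted p = 0.00146). ERAP2 was at 16.07, 15.83 and 15.78 TPM in Ctrl and at 13.34, 13.33 and 13.51 in rhLUM, a change of -0.23 (SE 0.04, limma adjusted p = 0.00274), and it stood at -0.42 after median-of-ratios scaling and at -0.63 with the length and GC correction. Within a library the ERAP1 to ERAP2 ratio went from 0.742 ± 0.021 in Ctrl to 1.10 ± 0.015 in rhLUM (SD, n = 3), so ERAP2 was the higher of the pair in Ctrl and ERAP1 in rhLUM. The rise of ERAP1 was lost after median-of-ratios scaling (0.12, limma adjusted p = 0.0809) and upper quartile scaling (0.08, adjusted p = 0.214), and its sign turned with the length and GC correction (-0.09, adjusted p = 0.161), so the opposite directions depend on the scaling and the shifted ratio does not depend on library scaling.

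Of the transcription factors of MHC genes, 3 of the 4 tested fell and RFX5 rose, where 22.3% of all genes fell and 44.2% rose. NLRC5, the class I transactivator, was at 5.39, 6.97 and 6.57 TPM in Ctrl and at 1.67, 3.16 and 2.84 in rhLUM. All rhLUM libraries lay below all Ctrl libraries, with rhLUM A the lowest, and the change was -1.06 (SE 0.18, limma adjusted p = 0.00172). CIITA, the class II transactivator, was listed at 0.17 TPM or less in all 6 libraries and was not tested. NLRC5 and CIITA do not bind DNA themselves and are held at the promoter by the RFX complex of RFX5, RFXAP and RFXANK.

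The subunits of that complex did not move together. RFX5, the DNA-binding subunit, was at 28.68, 31.47 and 27.17 TPM in Ctrl and at 49.55, 45.01 and 44.92 in rhLUM, a change of 0.66 (SE 0.07, limma adjusted p = 1.03e-04). RFXANK, its ankyrin repeat partner, was at 28.92, 32.72 and 35.37 TPM in Ctrl and at 18.79, 21.87 and 19.47 in rhLUM, a change of -0.66 (SE 0.09, limma adjusted p = 4.17e-04). RFXAP, the third subunit, was at 2.78, 3 and 3.12 TPM in Ctrl and at 2.19, 2.05 and 1.59 in rhLUM, a change of -0.44 (SE 0.12, limma adjusted p = 0.0166) whose call was lost without Ctrl C (adjusted p = 0.0575). RFX5 and RFXANK had like levels in Ctrl, with a ratio of 0.907 ± 0.12, against 2.33 ± 0.29 in rhLUM (SD, n = 3), and the NLRC5 to RFX5 ratio was 0.217 ± 0.027 and 0.0557 ± 0.019.

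Class II was represented by its processing genes and hardly by its DR, DP, DQ and DO chains. HLA-DRA and HLA-DOA were listed at 0 in all 6 libraries, and HLA-DRB1, HLA-DPA1, HLA-DPB1, HLA-DQA1 and HLA-DQB1 at 0.29 TPM or less. The sum over these 7 genes was 0.08, 0.16 and 0.50 TPM in Ctrl and 0.44, 0.00 and 0.28 in rhLUM, with no order between groups. HLA-DMA and HLA-DMB, the chains of the HLA-DM molecule that exchanges peptides on class II, stood apart from them. HLA-DMA was at 14.78, 14.04 and 14.88 TPM in Ctrl and at 16.58, 16.43 and 14.15 in rhLUM, and HLA-DMB at 14.59, 13.89 and 14.07 and at 13.51, 11.75 and 13.15. The changes of 0.10 (SE 0.07, limma adjusted p = 0.248, interval -0.07 to 0.27) and -0.14 (SE 0.06, adjusted p = 0.0932, interval -0.29 to 0.01) did not pass. HLA-DMB shares 23.3% of its 151-base stretches with the annotated transcript AL645941.2, and after median-of-ratios scaling it passed as lower (limma adjusted p = 0.00327). HLA-DMA passed as higher without rhLUM C (adjusted p = 0.0388), and its sign turned after median-of-ratios scaling (-0.0851, adjusted p = 0.33).

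CD74, the invariant chain that fills the class II groove until it reaches the endosome, was the class II member that fell. It stood at 8.36, 6.35 and 6.94 TPM in Ctrl and at 1.76, 1.94 and 2.13 in rhLUM. The rhLUM mean was 26.9% of that of Ctrl, with a change of -1.48 (SE 0.12, limma adjusted p = 3.04e-05). CTSS, the cathepsin that cuts the invariant chain, was at 83.46, 83.01 and 84.09 TPM in Ctrl and at 79.82, 86.96 and 86.82 in rhLUM. CTSL, a cathepsin of the same family, was at 470.28, 474.17 and 478.58 and at 465.12, 462.74 and 475.34. Both overlapped between groups and did not pass as deposited, with changes of 0.02 (SE 0.04, limma adjusted p = 0.739) and -0.02 (SE 0.02, adjusted p = 0.359). Both passed as lower after median-of-ratios scaling, at -0.18 (limma adjusted p = 0.00647) and -0.22 (adjusted p = 3.91e-05).

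Markers of human antigen-presenting and other leukocytes were counted beside these genes. Of 17 markers, 13 were under the mean of 1 TPM and 4 (MS4A1, NKG7, CLEC9A and FCER1A) were at 0 in all libraries, and PTPRC, the common leukocyte antigen, had a mean of 0.12 TPM in Ctrl and 0.20 in rhLUM. The list's summed TPM was 217.65 to 219.68 in Ctrl and 300.27 to 305.04 in rhLUM, most of it from LYZ and CD68, which are not limited to leukocytes. Of the 4 tested, 3 rose and 1 fell (75.0% and 25.0%, against 44.2% and 22.3% of all genes). CD68 rose from 33.6 ± 0.81 to 58.1 ± 2.24 TPM, LYZ from 180 ± 2.05 to 241 ± 3.34 and CD79A from 0.65 ± 0.28 to 1.61 ± 0.68 (SD, n = 3). CD79A was under 1 TPM in each Ctrl library and passed the filter only through rhLUM. ITGAX fell from 2.43 ± 0.26 to 0.87 ± 0.35 TPM, and CD86, which was not tested, was at 0.883 ± 0.22 and 0.217 ± 0.10 (SD, n = 3). The rhLUM mean of ITGAX was under 1 TPM, so ITGAX passed the filter only through Ctrl. The sums of 6 endothelial markers were 21.64 to 23.01 and 26.94 to 31.76 TPM, and those of 8 fibroblast markers 38.17 to 41.85 and 102.09 to 112.79, most of it LUM itself. Members of both lists went both ways: PECAM1 rose (16.4 ± 0.29 to 25.3 ± 2.44 TPM) and CDH5 fell (3.10 ± 0.34 to 0.45 ± 0.053), and LUM (24.7 ± 1.56 to 95.5 ± 3.54) and COL1A1 rose while DCN fell (7.96 ± 0.35 to 1.26 ± 0.32; SD, n = 3). The part of such transcripts in the fall of CD74 was not tested. Of the 8 markers of the carcinoma line, 6 were tested, 4 rose and 1 fell (66.7% and 16.7%, against 44.2% and 22.3% of all genes). KRT8 (1060 to 2474 TPM), KRT18 (901 to 1150), ALB (289 to 825) and TF (62.5 to 251) rose and EPCAM fell (2.03 to 0.82). The rhLUM means of EPCAM and of CDH5 were under 1 TPM, so both passed the filter only through Ctrl. AFP, at 31.2 ± 2.45 and 28.6 ± 1.95 TPM (SD, n = 3), did not pass, and GPC3 was near 0 (0.11 and 0.153 TPM).

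The stress ligands rose. MICA was at 8.07, 8.02 and 6.53 TPM in Ctrl and at 11.51, 14.33 and 12.30 in rhLUM, a change of 0.68 (SE 0.11, limma adjusted p = 0.00103). MICB was at 5.17, 5.04 and 5.82 TPM in Ctrl and at 7.82, 8.95 and 7.26 in rhLUM, a change of 0.50 (SE 0.09, limma adjusted p = 0.00247). For both genes each rhLUM library lay above each Ctrl library, and 83.0% and 73.4% of all genes tested had a lower change, so rises of this size were common. The MICB to MICA ratio overlapped between groups, at 0.72 ± 0.15 for Ctrl against 0.631 ± 0.045 for rhLUM (SD, n = 3). MR1, which shows vitamin B metabolites to MAIT cells, was at 4.58, 3.45 and 3.30 TPM in Ctrl and at 3.19, 2.79 and 2.50 in rhLUM, and its change of -0.31 (SE 0.14, limma adjusted p = 0.0771) did not pass as deposited. It passed at -0.46 after median-of-ratios scaling (limma adjusted p = 0.0205) and at -0.76 with the length and GC correction (adjusted p = 0.0019), and was at -0.20 without Ctrl A (adjusted p = 0.226). CD1D, which shows lipids to natural killer T cells, was listed at 0.14 TPM or less and was not tested.

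**Figure D3:**
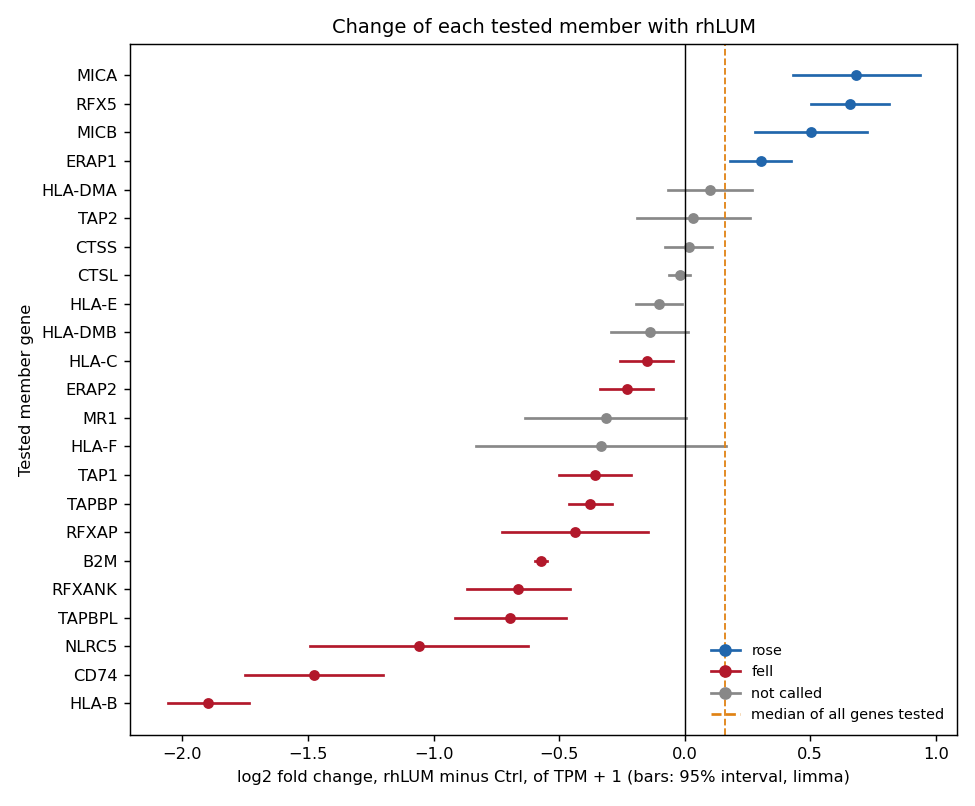
Log2 fold change of TPM + 1, rhLUM minus Ctrl, of each tested member with its 95% interval from limma (red fell, blue rose, grey did not pass), with 0 as a solid line and the median of all genes tested, 0.16, dashed. HLA-B at -1.90, CD74 at -1.48 and NLRC5 at -1.06 lie lowest, and MICA at 0.68 and RFX5 at 0.66 highest.

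The other genes of the pathway were read from 8 lists with the same fit, beside the 44.2% of all genes that rose, the 22.3% that fell and their median of 0.16. All 5 genes of the immunoproteasome and its activator fell, with a median of -0.75. The immunoproteasome cuts proteins into peptides that suit class I. The smallest p-values of the list were those of PSMB10 (28.6 ± 1.39 to 14.1 ± 1.05 TPM), the activator gene PSME2 (193 ± 3.31 to 132 ± 6.24) and PSMB8 (50.6 ± 1.00 to 29.7 ± 1.96), given as mean and SD, n = 3. All 5 stayed lower under every scaling tried.

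Of 12 genes of interferon gamma signalling to MHC, 10 were tested, 6 fell and 3 rose (median -0.38). The falls were led by feedback inhibitors of the pathway: SOCS3 went from 75.4 ± 2.04 to 11.7 ± 0.085 TPM and SOCS1 from 12.8 ± 0.77 to 0.22 ± 0.13, and the receptor chain IFNGR1 from 222 ± 1.75 to 141 ± 1.29 (SD, n = 3). SOCS1 was under 1 TPM in each rhLUM library and passed the filter only through Ctrl. IRF9 (21.9 ± 4.28 to 9.5 ± 0.27 TPM, a change of -1.11), IRF1 (30.0 ± 1.42 to 22.7 ± 1.61) and STAT2 (39.6 ± 2.01 to 30.3 ± 1.66) also fell. JAK1, the receptor's kinase, rose from 26.5 ± 1.95 to 54.8 ± 1.27 TPM, IFNGR2 rose from 76.3 ± 1.83 to 97.1 ± 0.66 and IRF2, a competitor of IRF1, from 13.3 ± 0.85 to 17.3 ± 0.68 (SD, n = 3). After upper quartile scaling 2 rose and 6 fell. With a filter of at least 1 TPM in all 6 libraries, 9 were tested, of which 3 rose and 5 fell.

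The NF-kB subunits went both ways, with 2 of 5 higher and 2 lower (median 0.0053). REL rose from 2.22 ± 0.23 to 5.30 ± 0.13 TPM and NFKB1 from 15.8 ± 0.94 to 24.04 ± 0.91, while RELB fell from 19.9 ± 1.59 to 12.2 ± 1.253 (SD, n = 3). NFKB2 also fell (-0.23, limma adjusted p = 0.01), and RELA was at 42.6 ± 2.63 and 42.8 ± 2.34 TPM. Of the 5 factors that sit beside RFX on the MHC promoter (NF-Y subunits and CREB family members), 4 rose and none fell (median 0.50, against 0.16 over all genes, of which 44.2% rose). ATF1 rose from 24.7 ± 0.65 to 40.9 ± 0.40 TPM, CREB1 from 13.3 ± 1.44 to 26.5 ± 2.25 and NFYA from 15.3 ± 0.65 to 22.0 ± 0.60 (SD, n = 3). These 4 kept a rise under each scaling, and 3 did with the correction for length and GC content.

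Of 6 chaperones of class I folding, 3 rose and 2 fell (50% and 33.3%, against 44.2% and 22.3% of all genes). Their median of 0.16 was that of all genes, and was -0.04 after median-of-ratios scaling. CANX, which holds the new heavy chain, rose from 368 ± 2.93 to 632 ± 15.3 TPM (SD, n = 3), PDIA4 by 0.49 and HSPA5 by 0.31 on the log2 scale. PDIA3, a part of the loading complex, fell from 636 ± 25.3 to 467 ± 19.1 TPM and CALR, its partner, from 449 ± 4.05 to 419 ± 7.29 (SD, n = 3). Of 8 endosomal enzymes of class II processing, 5 rose and 2 fell (62.5% and 25.0%, against 44.2% and 22.3% of all genes; median 0.34). CTSD rose by 0.41 and SPPL2A by 0.42, and CTSB (-0.26) and the thiol reductase IFI30 (-0.28) fell. With the length and GC correction SPPL2A turned to -0.029, and among the chaperones HSPA5 was at 0.02 and did not pass (limma adjusted p = 0.388). The call of CALR was lost without the variance trend (adjusted p = 0.0541).

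Of the 6 other NKG2D ligands, 4 were tested and 2 rose, ULBP3 from 1.09 ± 0.27 to 3.73 ± 0.53 TPM and ULBP1 from 0.67 ± 0.04 to 1.51 ± 0.17 (SD, n = 3). The Ctrl means of ULBP1 and of RAET1L, which was not called, were under 1 TPM, so both passed the filter only through rhLUM. With a filter of at least 1 TPM in all 6 libraries, 1 ligand was tested and 0 rose. ULBP2, at 5.72 ± 0.53 and 6.67 ± 0.40 TPM, did not pass as deposited (limma adjusted p = 0.0818). Of 8 other class I-like genes, 4 were tested, 3 rose and 1 fell. PROCR, the endothelial protein C receptor, rose from 70.8 ± 0.25 to 146 ± 4.44 TPM, HFE from 8.05 ± 0.88 to 12.9 ± 1.55 and AZGP1 from 66.2 ± 3.74 to 78.0 ± 1.85, while FCGRT, the neonatal Fc receptor that also pairs with B2M, fell from 54.8 ± 2.07 to 45.4 ± 4.798 (SD, n = 3). The call of FCGRT was lost without Ctrl A (limma adjusted p = 0.0539) and that of HFE with the length and GC correction (adjusted p = 0.0955). AZGP1 did not pass after median-of-ratios scaling (limma adjusted p = 0.461) and turned to -0.0012 after upper quartile scaling.

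**Figure D4:**
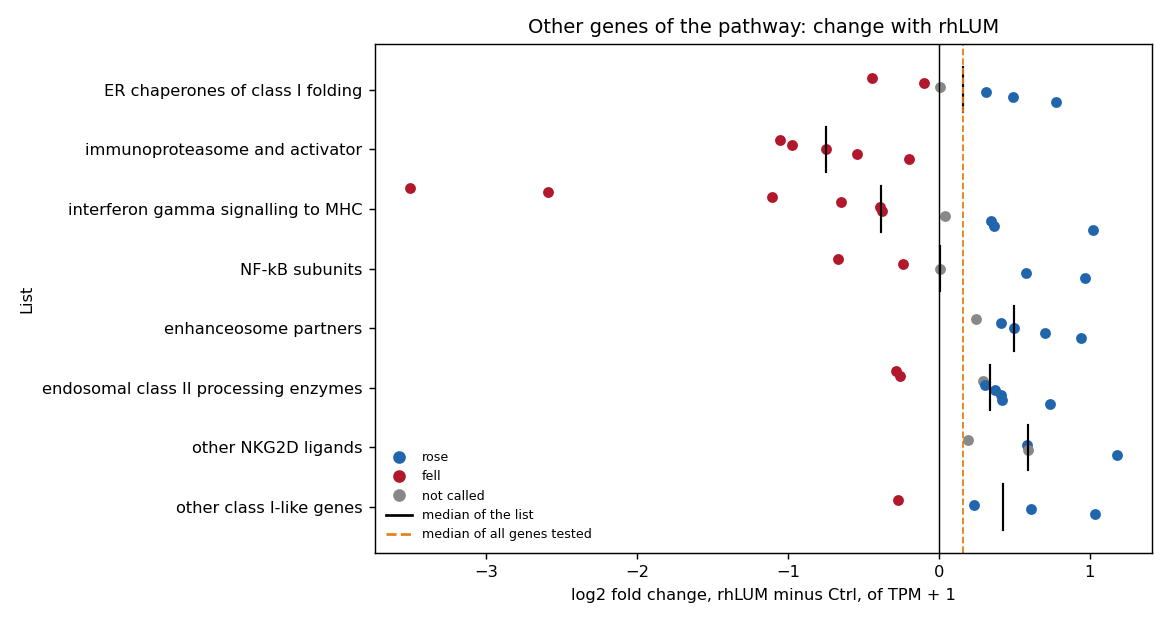
Log2 fold change of TPM + 1, rhLUM minus Ctrl, of the tested genes of 8 lists (1 point per gene; blue rose, red fell, grey did not pass), with the list's median as a black bar and the median of all genes tested dashed. The immunoproteasome points all lie below 0, and SOCS1 at -3.50 and SOCS3 at -2.59 lie lowest. SOCS1 passed the filter only through Ctrl.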

How the data were processed

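RNA was sequenced from 3 Ctrl and 3 rhLUM xenograft libraries. Per the labels' protocols, poly-A RNA was prepared (KAPA mRNA HyperPrep) and read as pairs of 151 bases. The tools named in the submitters' processing notes are STAR 2.7.8 and RSEM 1.2.31, with GRCh38. The values the authors deposited are TPM per the file headers, 1 table for each library. Not given in the sources used here were the annotation, the use of strand and any removal of host reads, so antisense reads and like host transcripts can add to a value. Depth is unknown.

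Rows sharing a symbol were summed, and genes whose mean reached 1 TPM were fitted with limma 3.58.1 in R 4.3.3 on log2(TPM + 1), with a variance trend and no term beside the group (two-sided, 4 residual degrees of freedom). The fit was also run on simulated data in which few genes changed, unlike here, so that run does not bear on the scaling. Fold changes on this scale understate the change of low genes. Promoters came from RefSeq (GRCh38.p14), and loci, transcript lengths, GC content and shared stretches from GENCODE 29, whose release may differ from that of the authors. Alignments used Biopython 1.88. The members and lists were chosen with earlier results of these data known. All members are accounted for. Some values are not reported here. From each list the up to 3 genes with the smallest p past the threshold and those that moved against its majority were named, and IRF1, IRF9, STAT2, NFKB2, RELA, ULBP2 and the marker genes were chosen after their values were seen. Alternatives were other scalings, another pseudocount, other filters, shared symbols left out, no trend, a test against a fold of 1.2, a replicate block, a correction for length and GC content (known for 87.0% of genes tested) and leaving out each library.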

Additional observations from a re-analysis of the deposited data

How the results depend on the processing

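Of the 15 members called, 10 kept their call and direction in all 17 alternatives: HLA-B, B2M, TAPBP, TAPBPL, NLRC5, RFX5, RFXANK, CD74, MICA and MICB. The calls of HLA-C, TAP1, ERAP1, ERAP2 and RFXAP were lost in at least 1. Against a fold of 1.2, 4195 genes were higher and 1821 lower, and 3 members were higher and 7 lower. Upper quartile scaling gave 4492 genes higher and 5176 lower. TAP2 was at -0.15 after median-of-ratios scaling, -0.19 after upper quartile scaling, -0.068 on rescaling without mitochondrial genes and -0.32 (called) with the length and GC correction, and at -0.035 to 0.14 on leaving out 1 library. HLA-DMA was at -0.0851, -0.12 and -0.0013 in those 3 scalings. CTSS was at -0.18, -0.22 and -0.091, at -0.30 with the correction, and at -0.0046 to 0.056 on leaving out 1 library. The correction turned ERAP1 to -0.088 and SPPL2A to -0.029, and upper quartile scaling turned AZGP1 to -0.0012. The cause was not tested. Leaving out 1 library gave 6182 to 6275 genes higher and 2960 to 3180 lower, and 4 to 5 members higher and 10 to 11 lower. Libraries of 1 letter did not deviate together (r from -0.012 to 0.088 across genes, where Ctrl A and Ctrl C correlated best with the rhLUM library of their own letter and Ctrl B with rhLUM A), and with the replicate block 6420 genes were higher and 3217 lower, with HLA-C lost and MR1 gained among members. Among tested members the standard errors were largest for HLA-F (0.21), NLRC5 (0.18), MR1 (0.14) and RFXAP (0.12), all low in TPM.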
